A study of Saccharomyces cerevisiae with 15 samples.

Results

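Yeast cells that overexpress human IRAK1 were compared with yeast cells that overexpress human IRAK4, the form without the KD mark in the sample titles. The comparison took 3 arrays of each, 6 of the 15 arrays of the study, and all 5449 genes were tested. The arrays were assigned to the groups by their titles, which name 3 biological replicates for each kinase. All groups were Saccharomyces cerevisiae strain YPH499. The labels put the human genes on plasmids under the galactose promoter. Cultures were kept in SR medium for 18 h at 30 °C, diluted into SG medium to an optical density of 0.3, and collected after 6 h in galactose. The Control cells went through the same switch, so galactose itself is shared by every group. IRAK4(KD), IRAK2 and Control cells, also 3 arrays each, entered the estimate of the spread. Control and IRAK4(KD) values serve only to place a difference.

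IRAK1 and IRAK4 are human protein kinases of innate immune signalling, which relay the signal of Toll-like receptors. In human cells IRAK4 joins the adaptor MyD88 first, and IRAK1 is then recruited to the complex and phosphorylated. Budding yeast has no such receptors and no such adaptor. The array's named probe sets are for yeast genes, and the amount of each human kinase was not measured by them. A difference between the groups and a difference in the dose of kinase therefore cannot be told apart.

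The genes of the galactose pathway, which share their promoter control with the plasmids, differed little. GAL1 read log2 13.50, 13.46 and 13.48 in IRAK1 replicates 1 to 3 and 13.41, 13.46 and 13.44 in IRAK4. The highest values of these arrays were log2 13.97 to 14.21, so GAL1 lay near the top of the scale. Whether differences are compressed there was not tested. Among the 6 measured genes of that pathway only GAL2, the galactose permease, was called, by a log2 difference of 0.25, and that call was lost without IRAK1 replicate 1. GAL3, the galactose sensor, was called only without that array, by a log2 difference of -0.33. URA3 read log2 13.41 to 13.50 in IRAK1 and 13.69 to 13.74 in IRAK4, a called log2 difference of -0.26. HIS3 lay at log2 3.33 to 3.83 over the same arrays. Of the a-specific genes, the receptor gene STE2 read log2 8.08 to 9.17. Of the alpha-specific genes, the pheromone gene MF(ALPHA)1 read log2 2.62 to 4.25 and MF(ALPHA)2 4.72 to 5.39, both low values. STE3 read log2 5.40 to 6.57 and SAG1 7.89 to 8.77, so that SAG1 overlapped STE2. BAR1, an a-specific gene, read log2 5.94 to 7.03, below SAG1. Levels on the arrays therefore did not separate the a-specific from the alpha-specific genes.

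IRAK1 replicate 1 stood apart from its group. Array medians lay between log2 8.72 and 8.87. Replicates of one group correlated at r = 0.993 to 0.998 over genes, except that IRAK1 replicate 1 correlated with its own group at 0.968. In that array 234 genes differed by over 1 on the log2 scale from the average of its 2 partners, 62 above and 172 below. The same count was 44 and 25 for IRAK1 replicates 2 and 3, and 1, 2 and 0 for the IRAK4 replicates. Where leaving it out ended a call, the lost call is named or the value without it is given. The same holds where it moved a printed count, or the printed difference of a called gene, by over 1.5 times. Genes that were not called are mostly given with all arrays only. Some of these moved further: CAT8 went from a log2 difference of 0.23 to 0.06, and HAC1 changed sign, from 0.15 to -0.13.

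A gene is called here when its adjusted p in limma, with Benjamini-Hochberg adjustment over all 5449 genes, was under 0.05. By that rule 2523 genes (46.3%) differed between IRAK1 and IRAK4 cells. In IRAK1 cells 998 genes (18.3%) were higher and 1525 (28%) were lower. The larger differences lay on the other side: 220 genes (4.04%) were at least 2-fold higher in IRAK1 and 112 (2.06%) at least 2-fold lower. At least 8-fold differences were called higher for 29 genes and lower for 1. Without IRAK1 replicate 1, 2922 genes (53.6%) were called, 1149 (21.1%) higher and 1773 (32.5%) lower. Called in both fits were 2301 genes, 0 of them with opposite signs, and all 332 genes at least 2-fold apart were among these. In that second fit 232 genes (4.26%) were at least 2-fold higher and 139 (2.55%) at least 2-fold lower. The 6 arrays did not overlap for 2522 genes (46.3%). With each array centred on its median 1136 genes were called higher and 1386 lower, a smaller excess of lower genes. Counts within the gene lists below are to be read against the 18.3% higher and 28% lower over all genes. For counts without IRAK1 replicate 1 these shares were 21.1% and 32.5%. With only the 6 arrays of both kinases in the fit, 623 genes were called higher and 863 lower. In these bulk samples a lower share of RNA and fewer cells that make it cannot be told apart.

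**Figure D1:**
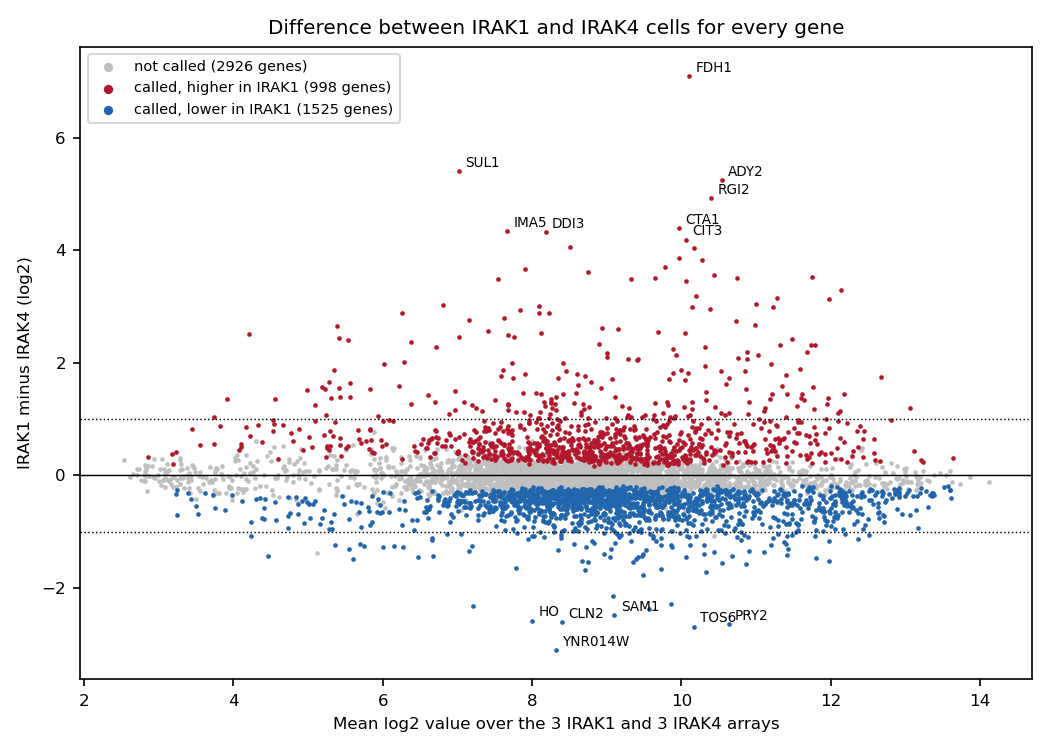
Difference between IRAK1 and IRAK4 cells (log2, vertical axis) against the mean log2 value over their 6 arrays (horizontal axis), 1 point a gene. Red points are the 998 genes called higher in IRAK1, blue points the 1525 called lower and grey points those not called, and dotted lines mark 2-fold. The highest point is FDH1, at 7.10.

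For most of the genes at least 2-fold apart, the Control mean lay between the means of both kinases. This held for 159 of the 220 higher genes and 80 of the 112 lower ones. Over the 220 higher genes the median log2 difference from Control was 1.26 in IRAK1 cells and -0.40 in IRAK4 cells. Over the 112 lower genes these medians were -0.89 and 0.37. These genes were chosen by the contrast itself, and the comparisons with Control share its 3 arrays, so these values are a description. Both kinases lay at least 2-fold from Control in opposite directions for 31 of the higher genes and 4 of the lower ones.

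FDH1, which encodes formate dehydrogenase, had the largest difference. FDH1 read log2 13.93, 13.55 and 13.49 in IRAK1 replicates 1 to 3 and 6.27, 6.39 and 7.0 in IRAK4. All 3 IRAK1 arrays were far above all 3 IRAK4 arrays, and the Control mean of 9.02 ± 0.68 (SD, n = 3) lay between them. The log2 difference was 7.10 ± 0.33 (SE), a 137-fold difference in signal, with an adjusted p of 7.08e-10 in limma. A near-identical copy of FDH1 is known elsewhere in the yeast reference genome. The probe set is not marked by its name as one that may cross-hybridise, and its probe sequences were not examined.

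SUL1, the high-affinity sulfate permease, read log2 9.78, 9.84 and 9.56 in IRAK1 cells and 4.43, 4.40 and 4.12 in IRAK4 cells. The IRAK4 values lay near the low end of the array scale, so the size of the log2 difference, 5.40 ± 0.24, is less certain than its direction. In IRAK4(KD) cells SUL1 was also low, with a mean log2 level of 3.74, against 7.61 in Control. RGI2, a gene of respiratory growth, differed by 4.92 on the log2 scale and IMA5, an isomaltase, by 4.33. DDI3, whose product resembles cyanamide hydratases, read log2 9.60, 10.94 and 10.50 in IRAK1 and 5.98 to 6.07 in IRAK4. Its probe set is one that may cross-hybridise, and DDI3 has an identical copy, DDI2, so the signal cannot be split between them. YML131W, an oxidoreductase-like gene, differed by 3.87, ALP1, a basic amino acid permease, by 3.66, and REG2, a regulatory subunit of the phosphatase Glc7, by 3.62 on the log2 scale. CRF1, a corepressor of ribosomal protein genes chosen after its values were seen, differed by 3.50.

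On the lower side the differences were smaller. YNR014W, of unknown function, read log2 5.37, 7.54 and 7.41 in IRAK1 and 9.92, 9.79 and 9.93 in IRAK4. The IRAK1 values split, with replicate 1 lowest, and the log2 difference was -3.11, or -2.40 without that replicate. The Control mean was 6.91, below IRAK4 and close to IRAK1 replicates 2 and 3. TOS6, a cell wall protein gene, differed by -2.68 and PRY2, which encodes a secreted sterol-binding protein, by -2.63 on the log2 scale. TOS6, PRY2, CSI2 at -2.31 and CLN2 at -2.61 shared a pattern: IRAK4 lay above Control and IRAK1 below it. FUR4, the uracil permease, differed by -1.68. PHO3, an acid phosphatase, differed by -1.78, but by -0.87 without IRAK1 replicate 1, which alone read log2 6.79 against 9.32 and 9.68.

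**Figure D2:**
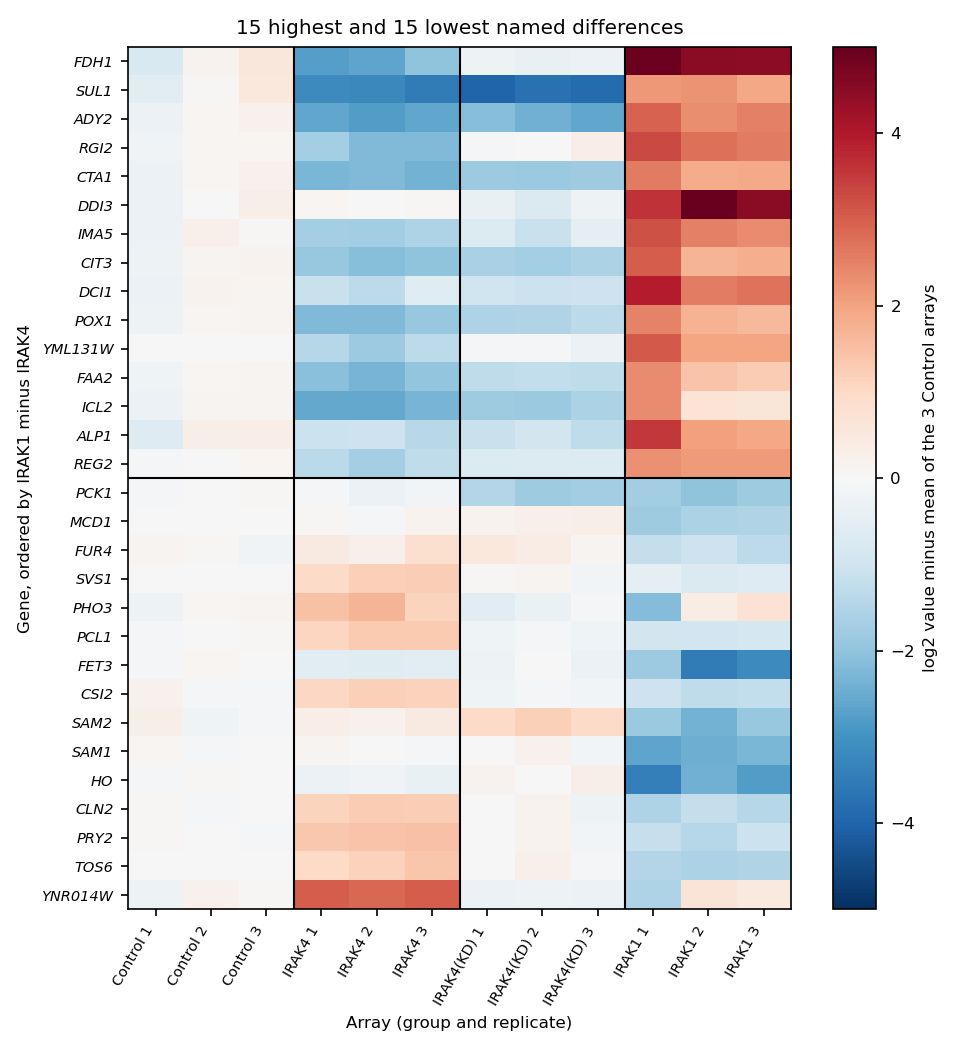
Log2 values minus the mean of the 3 Control arrays for the 15 highest and 15 lowest differences that were called with and without IRAK1 replicate 1 and whose 6 arrays did not overlap. Each column is 1 array of Control, IRAK4, IRAK4(KD) or IRAK1 cells and each row 1 gene. In the upper block the IRAK1 columns are red in every row, and most IRAK4 rows are blue.

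Genes of fatty acid oxidation were higher in IRAK1 cells almost without exception. In yeast this pathway runs in peroxisomes: an activated fatty acid enters through the Pxa1 and Pxa2 transporter, and Pox1, Fox2 and Pot1 shorten it step by step. Hydrogen peroxide from the first step is removed by the peroxisomal catalase Cta1. Of 17 measured genes of the list, 16 (94.1%) were called higher and 0 lower, with a median log2 difference of 3.00, against -0.08 over all genes. The count was again 16 without IRAK1 replicate 1, with a median of 2.82. It was 16 also in every other setting of the fit that was tried.

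The core enzymes gave the clearest separation. POX1, the acyl-CoA oxidase, read log2 12.72, 11.98 and 11.86 in IRAK1 replicates 1 to 3 and 8.03, 8.05 and 8.35 in IRAK4. FOX2, the multifunctional enzyme of the middle steps, read 13.08, 12.53 and 12.56 against 9.68, 9.65 and 9.86 on the same scale. POT1, the thiolase, read 13.21, 12.64 and 12.71 against 9.76, 9.75 and 9.61. In each of these 3 genes the lowest IRAK1 array lay above the highest IRAK4 array. The log2 differences were 4.04 for POX1, 3.00 for FOX2 and 3.15 for POT1, and replicate 1 was the highest IRAK1 array each time. Without it they were 3.78, 2.82 and 2.96.

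CTA1 read log2 12.65, 11.89 and 11.96 in IRAK1 and 7.78, 7.84 and 7.70 in IRAK4, a difference of 4.39 ± 0.18 (SE). Control lay between, at 10.05 ± 0.26 (SD, n = 3). The auxiliary enzymes for unsaturated fatty acids were higher too: DCI1 by 4.07, ECI1 by 3.56 and SPS19 by 2.96 on the log2 scale. IDP3, which supplies NADPH inside the peroxisome, differed by 3.46. Uptake and activation followed the same direction, with FAA2, a peroxisomal acyl-CoA synthetase, at 3.82, PXA1 at 3.51 and PXA2 at 2.60. Smaller log2 differences were called for the thioesterase TES1, at 1.85, the peroxisomal malate dehydrogenase MDH3, at 0.96, and the ATP carrier ANT1, at 0.68. LPX1, a peroxisomal lipase, differed by 2.28.

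The regulators of the pathway did not move together. Oaf1 and Pip2 form the activator that binds oleate response elements. PIP2 read log2 9.77, 9.05 and 9.02 in IRAK1 and 8.15, 8.0 and 8.14 in IRAK4, a called difference of 1.18. OAF1 was the 1 member of the list not called, at a log2 difference of 0.12. ADR1, the activator that also acts on these genes, was not called either, at -0.19. Over the 17 genes the median log2 difference from Control was 1.69 in IRAK1, -1.01 in IRAK4 and -0.95 in IRAK4(KD). Several of these genes, such as ECI1 and POT1, are named here after their values were seen.

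**Figure D3:**
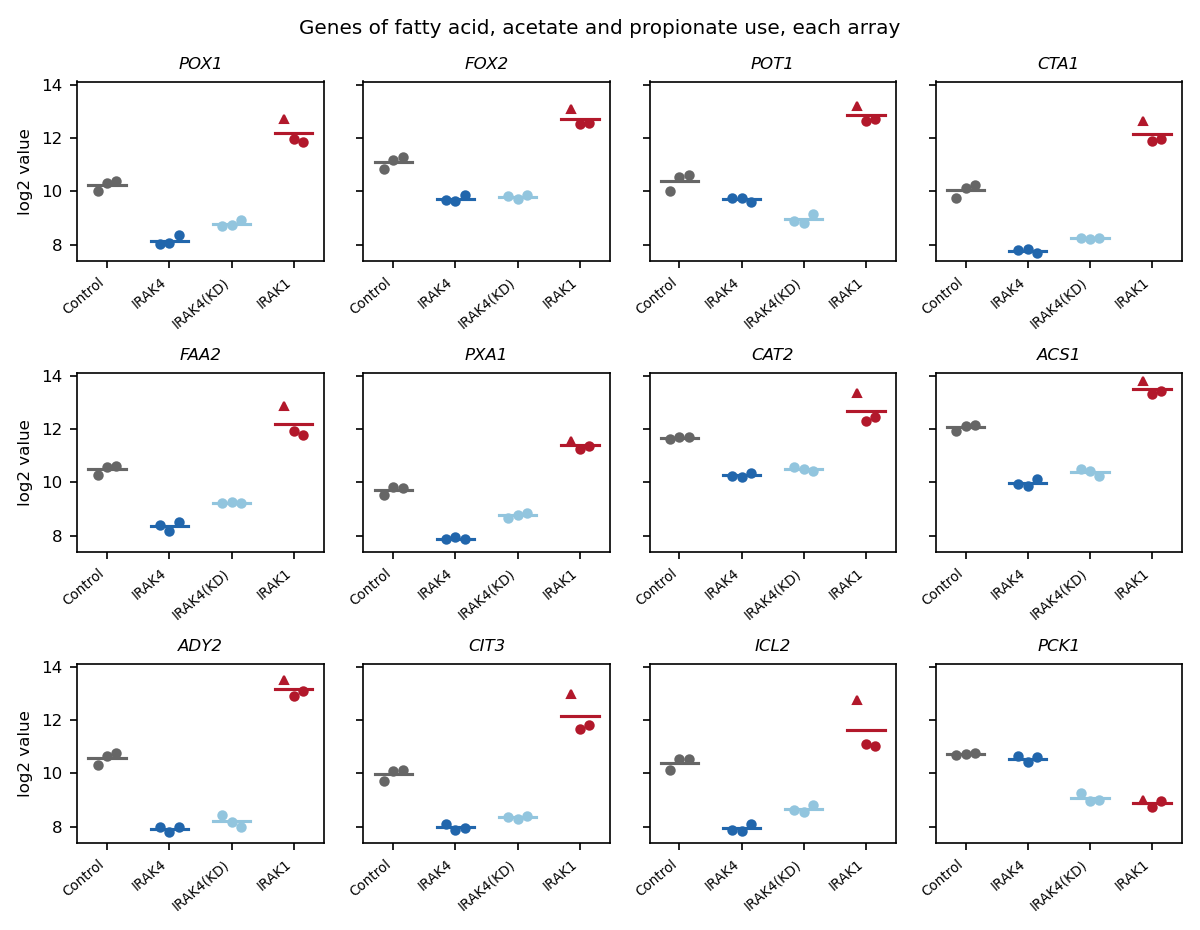
Log2 value in every Control, IRAK4, IRAK4(KD) and IRAK1 array for 12 genes, with a bar at each group's mean and a triangle for IRAK1 replicate 1. In 11 panels the IRAK1 points lie above all others. PCK1 is the exception, with IRAK1 at 8.73 to 9.01 and IRAK4 at 10.42 to 10.65.

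Genes that handle the products of fatty acid oxidation were also higher. The carnitine shuttle carries acetyl groups from peroxisomes to mitochondria, and all 5 of its measured genes were called higher, with a median log2 difference of 1.45. CAT2, the carnitine acetyltransferase of peroxisomes and mitochondria, read log2 13.34, 12.29 and 12.44 in IRAK1 and 10.22, 10.21 and 10.35 in IRAK4. CRC1, the mitochondrial carnitine carrier, differed by 1.82, YAT2 by 1.45 and YAT1 by 1.36. AGP2, linked to carnitine uptake, differed by 0.61 but was not called without IRAK1 replicate 1, so that 4 of the 5 were then called.

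All 4 measured genes of acetate and lactate uptake were called higher, with and without IRAK1 replicate 1. ADY2, an acetate transporter, read log2 13.51, 12.89 and 13.08 in IRAK1 and 7.97, 7.79 and 7.99 in IRAK4. The log2 difference, 5.24 ± 0.20 (SE), was the third largest of the named genes. Its relatives ATO3 and ATO2 differed by 2.31 and 1.98, and JEN1, the lactate permease, by 1.57 on the log2 scale. JEN1 read 12.94, 12.25 and 12.47 in IRAK1 and 11.05, 10.86 and 11.03 in IRAK4.

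The methylcitrate cycle breaks down propionyl-CoA in mitochondria, and all 3 of its measured genes were called higher. CIT3, the methylcitrate synthase, read log2 12.99, 11.68 and 11.80 in IRAK1 and 8.08, 7.87 and 7.95 in IRAK4. PDH1, a dehydratase of the cycle, differed by 2.68 and ICL2, the methylisocitrate lyase, by 3.70 on the log2 scale. Replicate 1 was the highest IRAK1 array for all 3, and without it the median log2 difference was 3.14 in place of 3.70.

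Gluconeogenesis and the glyoxylate cycle split. Of 15 measured genes 7 were called higher and 2 lower, with a median log2 difference of 0.26. Without IRAK1 replicate 1 these counts were 7 and 3, and the median was 0.06. ACS1, the acetyl-CoA synthetase, read log2 13.82, 13.31 and 13.43 in IRAK1 and 9.95, 9.88 and 10.13 in IRAK4. ADH2, the ethanol-oxidizing alcohol dehydrogenase, read 13.83, 13.66 and 13.85 against 10.60, 10.51 and 10.35. For ADH2 the Control mean was 13.49 on the log2 scale, close to IRAK1, and IRAK4 was the group that lay apart. SIP4, an activator of gluconeogenic genes, differed by 1.29, and ALD4, the mitochondrial aldehyde dehydrogenase, by 1.20. The key enzymes of gluconeogenesis itself went the other way. PCK1, phosphoenolpyruvate carboxykinase, read log2 9.01, 8.73 and 8.97 in IRAK1 and 10.65, 10.42 and 10.60 in IRAK4. Its log2 difference was -1.65 ± 0.11 (SE), with an adjusted p of 1.94e-08 in limma, and FBP1, fructose-1,6-bisphosphatase, differed by -0.45. In the glyoxylate cycle MLS1, malate synthase, and MDH2, malate dehydrogenase, were called higher by 0.56 and 0.40. ICL1, isocitrate lyase, at 0.26, and CAT8, the activator of this set, at 0.23, were not called.

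Among genes that build peroxisomes, 11 of 24 (45.8%) were called higher and 2 lower. The median log2 difference was 0.29. PEX11, which encodes the protein that divides peroxisomes, read log2 12.67, 12.19 and 12.03 in IRAK1 and 10.48, 10.49 and 10.54 in IRAK4. PEX18, a co-receptor for import of proteins with the second type of targeting signal, differed by 1.74 and PEX28 by 1.07. The 2 lower genes, PEX10 at -0.24 and PEX22 at -0.22, differed least. Neither was called when each array was centred on its median, and PEX22 was not called without replicate 1.

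Hexose transporters and genes of glucose repression were higher as a list: 14 of 18 (77.8%) were called higher and 0 lower, with a median log2 difference of 0.58. HXT2, a high-affinity hexose transporter, read log2 13.14, 12.20 and 12.17 in IRAK1 and 9.56, 8.39 and 9.02 in IRAK4. HXT4 read 10.87, 11.01 and 11.14 in IRAK1 and 8.98, 8.50 and 8.79 in IRAK4. Transporter genes of this family are similar in sequence, and signal shared between them cannot be told apart. SUC2, the invertase, read 11.32, 11.27 and 11.34 against 9.03, 8.76 and 8.58, a log2 difference of 2.52. MIG2 and MIG3, repressors of such genes, differed by 1.47 and 1.76, and MTH1, which holds hexose transporter genes off when glucose is absent, by 0.86. HXT8 differed by 2.65 on the log2 scale, with IRAK4 values of 3.77 to 4.32 at the low end of the arrays. HXT5, the transporter of slow-growing cells, was not called, at -0.30. With only the 6 arrays in the fit 9 of these genes were called higher. Over all genes the higher calls fell from 998 to 623 in that fit.

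**Figure D4:**
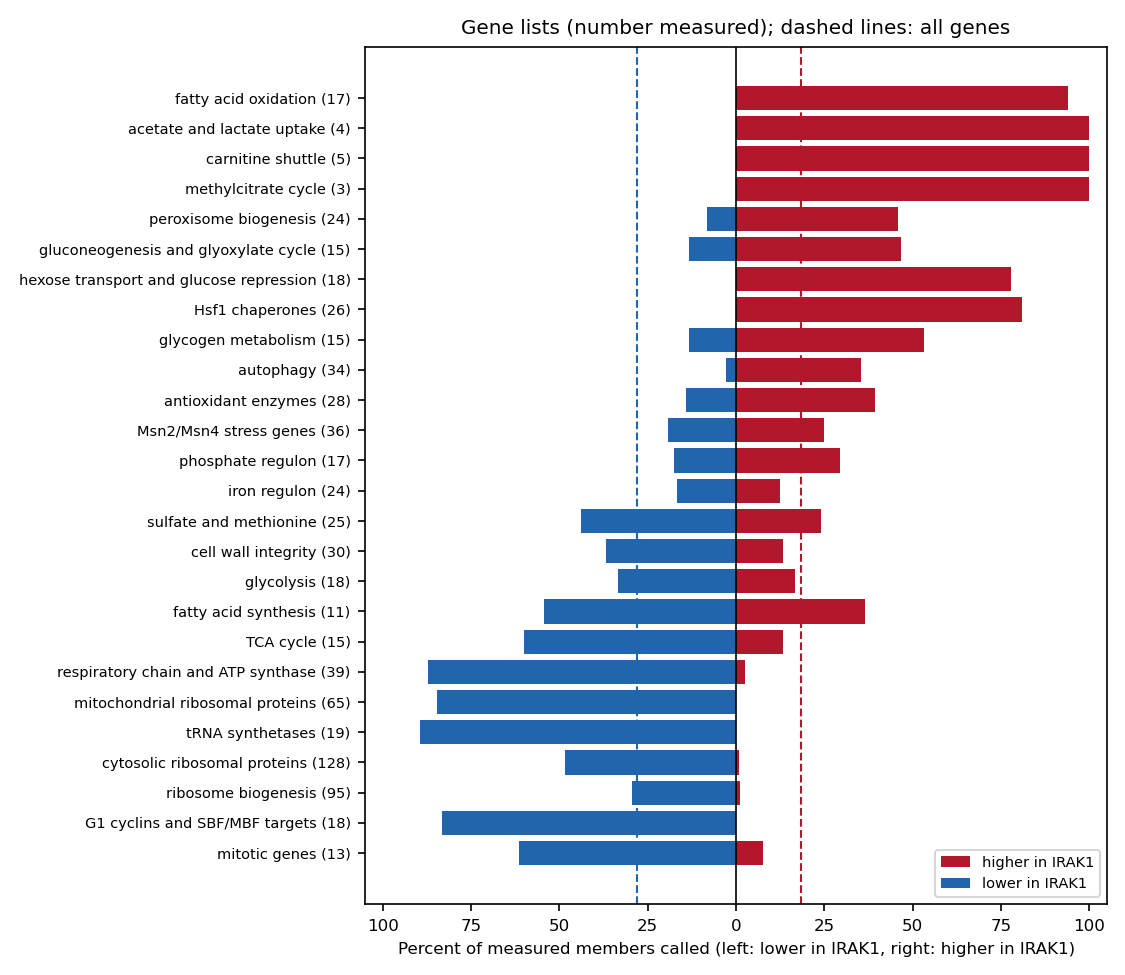
Percent of the measured members of 26 gene lists that were called higher (red, right) or lower (blue, left) in IRAK1 than in IRAK4 cells, with the number measured in brackets. Dashed lines mark the shares over all genes, 18.3% higher and 28% lower. Fatty acid oxidation, at 94.1%, lies far to the right of its line and tRNA synthetases, at 89.5%, far to the left.

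For some enzyme steps, though not most of those looked at, genes of the same step differed in opposite ways. For catalase, CTA1 was higher, while CTT1, the cytosolic catalase of the stress response, read log2 10.58, 11.36 and 11.25 in IRAK1 and 12.52, 12.49 and 12.60 in IRAK4. Its log2 difference was -1.47, or -1.23 without IRAK1 replicate 1. Both kinases lay above the CTT1 Control mean of 8.98. For sulfate uptake the log2 difference was 5.40 for SUL1 and -0.31 for SUL2. For alcohol dehydrogenase ADH2 differed by 3.29 and ADH1, the fermentative enzyme, by -0.93. ADH1 read log2 13.42, 12.36 and 12.32 in IRAK1 and 13.63 in each IRAK4 array, so that the difference was -1.29 without replicate 1.

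The external NADH dehydrogenases split as well, NDE2 at a log2 difference of 2.08 and NDE1 at -0.49, or -0.82 without replicate 1. The NDE1 arrays overlapped, and its adjusted p of 0.0499 in limma was just inside the threshold. For the glutamate dehydrogenases GDH3 differed by 1.09 and GDH1 by -0.96. PMA2, a minor proton pump gene, differed by 0.77, or 1.21 without replicate 1, and PMA1, the main one, by -0.65. Among citrate synthases CIT3 differed by 4.19, while CIT1 and CIT2 were not called. CIT1, at -0.25, was called without replicate 1, at -0.39. CIT2 read log2 13.03, 11.86 and 12.04 in IRAK1 and 12.25 to 12.34 in IRAK4. Its log2 difference was 0.01 with all arrays and -0.35 without replicate 1, when it was called. Likewise ICL2 differed by 3.70 and ICL1 was not called.

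Other sets differed in 1 direction or in 1 gene. All 4 cytosolic Hsp70 genes of the SSA family were higher, and both Hsp90 genes. Of the hexokinases HXK1 and HXK2 were higher by 1.37 and 0.57, and GLK1 was not called at 0.12. HXK2 differed by 0.36 without replicate 1. CYC1, the main cytochrome c, differed by -1.18, and CYC7 was not called at -0.10. GPD1 differed by -0.90, and GPD2 was not called at 0.03. GSY1, a glycogen synthase, differed by 1.04, and GSY2 was not called at 0.08. TDH1, a glyceraldehyde-3-phosphate dehydrogenase, read log2 10.65, 11.95 and 11.85 in IRAK1 and 11.50 to 11.67 in IRAK4. It was not called at -0.10, and was called at 0.32 without IRAK1 replicate 1. ENO1, ENO2 and TDH3 were not called with or without that array. Close copies such as SSA1 and SSA2, or HSC82 and HSP82, can share signal on the array.

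**Figure D5:**
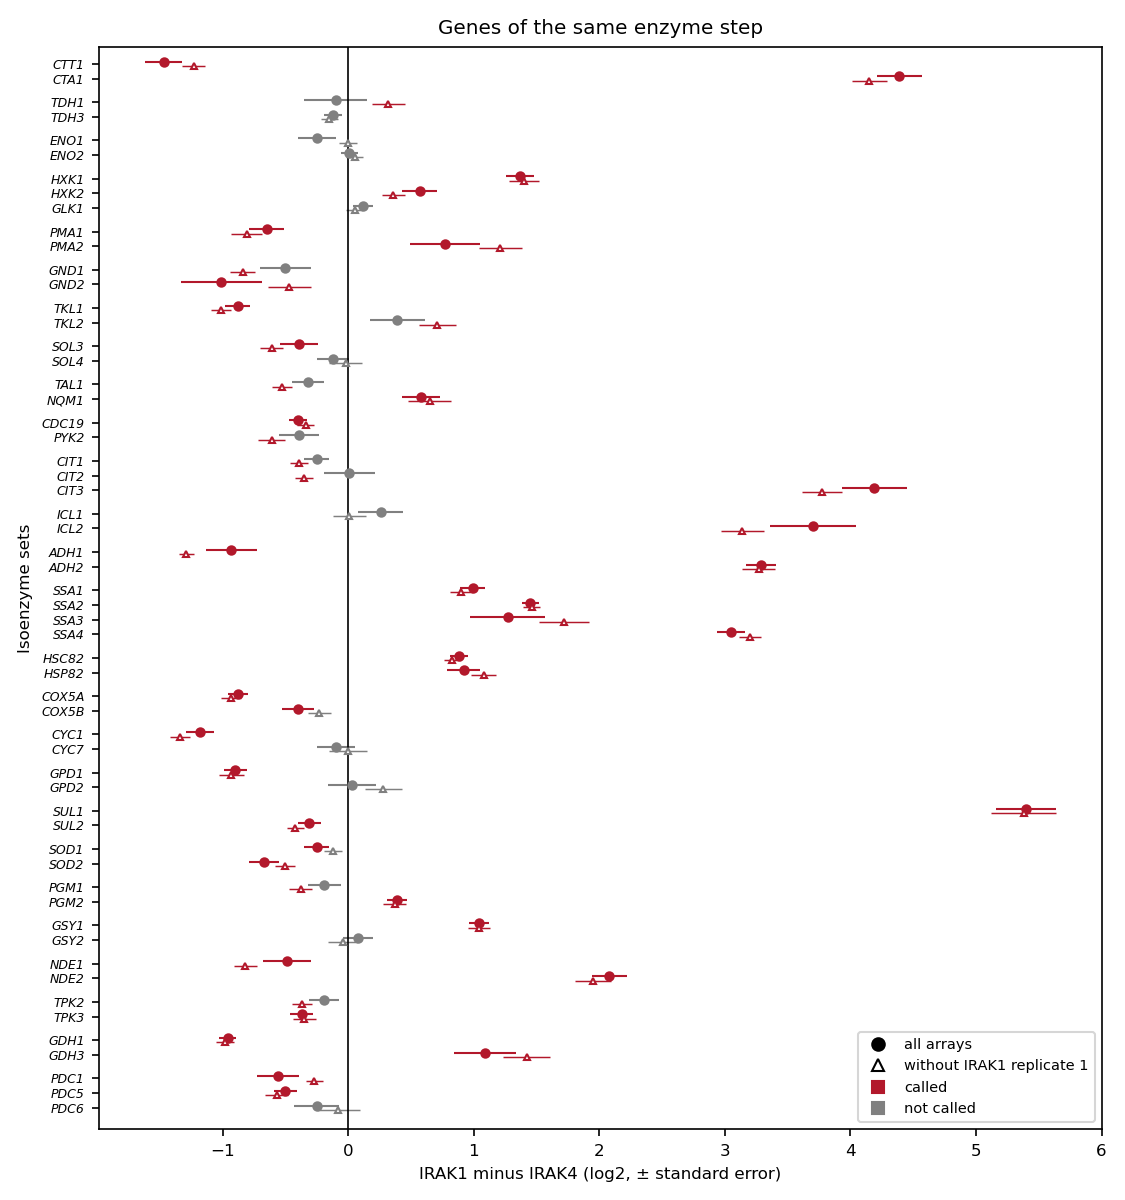
Log2 difference, IRAK1 minus IRAK4, with its standard error for genes of the same enzyme step, from all arrays (circles) and without IRAK1 replicate 1 (triangles). Red marks called genes and grey those not called. CTA1 and CTT1, SUL1 and SUL2, and ADH2 and ADH1 lie on opposite sides of 0.

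Chaperone genes under the heat shock factor Hsf1 were higher in IRAK1 cells. Hsf1 drives the genes of cytosolic protein folding when misfolded proteins build up. Of 26 measured genes 21 (80.8%) were called higher and 0 lower, with a median log2 difference of 0.87, and 22 were called higher without IRAK1 replicate 1. SSA4, the stress-induced Hsp70, read log2 12.22, 12.76 and 12.58 in IRAK1 and 9.43, 9.44 and 9.53 in IRAK4. The groups were well apart, and the difference was 3.05 ± 0.11 (SE) with an adjusted p of 8.67e-11 in limma. BTN2 and CUR1, which sort misfolded proteins, differed by 2.74 and 1.47. BTN2 read 11.58, 12.41 and 12.30 in IRAK1 and 9.39, 9.28 and 9.42 in IRAK4. Cochaperones were called higher by smaller log2 amounts: CPR6 by 1.19, HCH1 by 1.20, AHA1 by 0.97, SIS1 by 0.86 and STI1 by 0.75. HSP104 and HSP42 differed by 0.48 and 0.67. HSP26 read 11.90, 13.01 and 13.05 in IRAK1 and 12.08 to 12.32 in IRAK4, and was called only without replicate 1, by 0.86. Over the list the median log2 difference from Control was 1.06 in IRAK1, 0.22 in IRAK4 and 0.77 in IRAK4(KD).

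Among the other folding and degradation lists fewer members were called. KAR2, the Hsp70 of the endoplasmic reticulum, read log2 12.41, 12.50 and 12.40 in IRAK1 and 11.33, 11.30 and 11.67 in IRAK4, a called difference of 1.00. Of the 19 endoplasmic reticulum folding genes 3 (15.8%) were called higher, KAR2, MPD2 and LHS1, and 3 (15.8%) lower. Both shares were below the 18.3% and 28% over all genes. Without IRAK1 replicate 1 these counts were 6 and 5, and MPD2 differed by 0.56 in place of 0.86. The higher share then lay above the 21.1% over all genes in that fit, and the lower share below its 32.5%. HAC1, which encodes the activator of the unfolded protein response, was not called at 0.15. Its splicing is not read by these values. RPN4, the activator of proteasome genes, differed by 0.75. Of 33 genes in the proteasome list, RPN4 included, 8 (24.2%) were called higher and 3 (9.09%) lower. Of the 8 CCT chaperonin genes 0 were called higher and 4 lower.

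General stress genes under Msn2 and Msn4 stood at similar heights in both groups. Their median log2 difference from Control was 1.90 in IRAK1 and 2.13 in IRAK4, against 0.25 in IRAK4(KD). Between the kinases 9 of 36 (25%) were called higher and 7 (19.4%) lower, with a median of 0.03. Over all genes these shares were 18.3% and 28%. Without IRAK1 replicate 1 the counts were 16 and 7. HSP12, a small membrane-associated stress protein, read log2 13.77, 13.80 and 13.97 in IRAK1 and 13.91, 13.95 and 13.78 in IRAK4, and the groups overlapped. These values lay near the top of the array scale, where a difference may be hard to see. TMA10 differed by 1.90, RGI1 by 1.70 and MRK1, a kinase of the GSK-3 family, by 1.45. At the other end CTT1 differed by -1.47, GND2 by -1.01 and RTC3 by -0.80. Without replicate 1 both GND2, a phosphogluconate dehydrogenase, and RTC3 differed by -0.47. The median of the list was then 0.19.

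Storage carbohydrate genes went both ways. Of the 7 trehalose genes NTH2 and ATH1, both trehalases, were called higher by 0.59 and 1.08. Lower were NTH1 at -0.54, TPS2 at -0.52, TSL1 at -0.42 and TPS1 at -0.39. NTH1 is also a trehalase, so the breakdown genes differed in both directions, and the others encode subunits of the trehalose synthase complex. With only the 6 arrays in the fit 1 of the 4 lower genes was called, while over all genes the lower calls fell from 1525 to 863. Of 15 glycogen genes 8 were called higher and 2 lower, led by the glycogenin GLG1 at 1.22 and PIG1, a regulatory subunit of Glc7, at 1.15. UGP1, which makes UDP-glucose for both trehalose and glycogen, was lower at -0.72. Autophagy genes were called higher in 12 of 34 (35.3%) and lower in 1 (2.94%), against 18.3% and 28% over all genes. Without IRAK1 replicate 1 these counts were 15 and 2. ATG41 differed by 1.62 and ATG1, the initiating kinase, by 1.10.

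Of 28 antioxidant genes 11 (39.3%) were called higher and 4 (14.3%) lower, against 18.3% and 28% over all genes. The median log2 difference was 0.12, or 0.26 without replicate 1. OYE3, an NADPH oxidoreductase, read log2 7.29, 9.89 and 9.88 in IRAK1 and 6.24, 5.97 and 6.46 in IRAK4. The difference was 2.79, and 3.66 without replicate 1, which lay closest to IRAK4. OYE2 differed by 1.73. TSA2, a stress-induced peroxiredoxin, read 7.13, 10.33 and 9.97 in IRAK1 and 8.52, 8.92 and 8.10 in IRAK4, and was called only without replicate 1, by 1.64. The superoxide dismutases SOD2 and SOD1 were lower by small amounts, at -0.67 and -0.25, and SOD1 was not called without replicate 1.

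Mitochondrial genes were lower in IRAK1 cells over several lists. In the respiratory chain and ATP synthase, which make ATP from NADH and succinate, 34 of 39 (87.2%) were called lower and 1 higher, with a median log2 difference of -0.51. The higher gene was NDE2. CYC1 read log2 11.10, 10.58 and 10.68 in IRAK1 and 11.98, 11.94 and 11.98 in IRAK4. QCR2 of complex III differed by -1.08, the internal NADH dehydrogenase NDI1 by -1.14, COX4 by -0.76 and ATP1 by -0.62. ATP1 read 13.26, 12.58 and 12.66 in IRAK1 and 13.43 to 13.47 in IRAK4, with replicate 1 closest to IRAK4. With the 6 arrays alone 23 of these genes were called lower, while over all genes the lower calls fell from 1525 to 863.

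The tricarboxylic acid cycle had 9 of 15 genes called lower and 2 higher, with a median log2 difference of -0.55, and 12 were lower without replicate 1. IDH2, of the isocitrate dehydrogenase, read log2 11.16, 10.02 and 10.11 in IRAK1 and 11.78, 11.84 and 11.75 in IRAK4. Its log2 difference was -1.36, or -1.73 without replicate 1. IDH1 and the ketoglutarate dehydrogenase genes KGD2 and KGD1 differed by -1.05, -1.12 and -1.05. The 2 higher genes were LSC1 and LSC2, both subunits of succinyl-CoA ligase, at 0.75 and 1.03.

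Mitochondrial ribosomal protein genes were called lower in 55 of 65 (84.6%) and higher in 0, with a median log2 difference of -0.55. MRPL4 read log2 8.41, 8.12 and 8.13 in IRAK1 and 9.31, 9.44 and 9.40 in IRAK4. MRPS35 differed by -1.0 and MRPL35 by -0.98. Without IRAK1 replicate 1 the count was 59. The median log2 difference of this list from Control was -0.65 in IRAK1 and -0.10 in IRAK4.

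Genes of cytosolic protein synthesis were lower too, though less evenly. Of 19 tRNA synthetase genes 17 (89.5%) were called lower and 0 higher, with FRS2 and FRS1, of phenylalanine, at -0.88 and -0.70 and SES1, of serine, at -0.70. Of 128 cytosolic ribosomal protein genes 62 were called lower and 1, RPL41A, higher. Many of these exist as near-identical pairs that can share signal, and the RPL41A probe set may cross-hybridise and was not called without replicate 1. RPL13A differed by -0.91. The median log2 difference was -0.26, and the count of lower genes fell to 26 with the 6 arrays alone. Over all genes the lower calls fell from 1525 to 863 in that fit. Without replicate 1, 51 were lower and 4 higher, with a median of -0.16.

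For ribosome biogenesis the result depended on IRAK1 replicate 1. With all arrays 28 of 95 genes (29.5%) were called lower and 1, FAF1, higher, close to the 28% called lower over all genes. Without that array 20 were lower and 17 higher, and the median log2 difference was -0.02 in place of -0.29. In replicate 1 these genes lay a median of -0.89 on the log2 scale from the other 2 IRAK1 arrays. NSR1, a nucleolar protein gene, read log2 9.34, 10.61 and 10.81 in IRAK1 and 11.33, 10.92 and 11.29 in IRAK4. NOP56 differed by -0.96, or -0.75 without that array, and NOP1, of the same snoRNP, by -0.62 or -0.47.

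Genes of the G1 to S transition were lower. At this step the cyclins Cln1, Cln2 and Cln3 commit the cell to division through the factors SBF and MBF, which then switch on genes of budding and DNA replication. Of 18 measured genes 15 (83.3%) were called lower and 0 higher, with a median log2 difference of -0.99, and 14 were lower without replicate 1. CLN2 read log2 6.94, 7.29 and 7.06 in IRAK1 and 9.63, 9.75 and 9.74 in IRAK4. The difference was -2.61 ± 0.11 (SE) with an adjusted p of 3.29e-10 in limma, and Control, at 8.50 ± 0.06 (SD, n = 3), lay between. CLN1 read 8.43, 8.19 and 8.17 against 9.57, 9.63 and 9.76. PCL1 and PCL2, cyclins of the Pho85 kinase, differed by -2.13 and -1.42.

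HO, the mating-type endonuclease gene and a classic SBF target, read log2 6.16, 7.19 and 6.78 in IRAK1 and 9.27, 9.42 and 9.19 in IRAK4. For HO the Control mean of 9.58 was close to IRAK4. MCD1, a cohesin subunit, differed by -1.65, RNR1, the ribonucleotide reductase subunit, by -1.44, the S-phase cyclin CLB6 by -1.28 and the mitotic inhibitor SWE1 by -1.12. CLN3, the upstream cyclin, differed by -0.62, and SWI4, the DNA-binding part of SBF, was not called at 0.24. Over the list the median log2 difference from Control was -0.57 in IRAK1 and 0.14 in IRAK4.

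Mitotic genes had 8 of 13 called lower and 1 higher, with a median log2 difference of -0.39. The mitotic cyclin genes CLB1, CLB2 and CLB3 differed by -1.27, -0.91 and -0.59. CLB1 read log2 9.04, 9.22 and 9.46 in IRAK1 and 10.50, 10.43 and 10.61 in IRAK4, with a Control mean of 9.31 close to IRAK1. CDC20, the activator of the anaphase-promoting complex, was called higher at 0.30, and was not called without replicate 1.

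Sulfur genes differed strongly in both directions. SUL1, which brings sulfate in, had the second largest difference of the named genes. SAM1 and SAM2 make S-adenosylmethionine from methionine. SAM1 read log2 7.68, 7.88 and 8.03 in IRAK1 and 10.44, 10.32 and 10.26 in IRAK4. SAM2 read 8.56, 8.05 and 8.51 against 10.77, 10.62 and 10.88. The groups did not overlap for either, and the differences were -2.48 and -2.38 on the log2 scale. Both genes are alike in sequence. The Control means, 10.31 and 10.42, lay close to IRAK4. MUP1, the methionine permease, differed by -1.55 and MET6, methionine synthase, by -1.53. MMP1, the permease for S-methylmethionine, was higher by 1.80 and STR3, a cystathionine lyase, by 1.20. MET17, which fixes sulfide, differed by 0.64, or 0.42 without replicate 1. Of 25 genes 6 (24%) were called higher and 11 (44%) lower, against 18.3% and 28% over all genes.

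Single metal and phosphate genes differed in both directions. FET3, the multicopper oxidase of iron uptake, read log2 9.72, 8.05 and 8.38 in IRAK1 and 11.04, 10.94 and 11.01 in IRAK4, a difference of -2.28. Its partner FTR1, the iron permease, differed by -0.70, as did FRE1, a reductase, and FTH1 by -0.25. FRE4, another reductase of the family, read 9.49, 9.24 and 9.43 in IRAK1 and 6.78, 6.84 and 6.95 in IRAK4. FIT3, a cell wall mannoprotein that holds siderophores, was higher by 1.31 and ENB1 by 0.49, or by 0.75 and 0.26 without replicate 1. Of 24 iron genes 3 (12.5%) were called higher and 4 (16.7%) lower, both below the 18.3% and 28% over all genes. Without replicate 1 these counts were 4 and 9. The lower share then lay above the 32.5% over all genes in that fit, and the higher share below its 21.1%. FIT2 read 11.70, 9.01 and 9.01 in IRAK1 and 10.84 to 11.11 in IRAK4. It was called only without replicate 1, by -1.97. Of 12 zinc genes 0 were higher and 6 lower, with the transporters ZRT2 at -0.97 and ZRT1 at -0.85.

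PHO84, the high-affinity phosphate transporter, read log2 6.78, 10.20 and 10.00 in IRAK1 and 6.74, 6.39 and 6.46 in IRAK4. Replicate 1 lay next to IRAK4, while the other 2 were far above it. The log2 difference was 2.46, and 3.57 without replicate 1. SPL2, which lowers low-affinity phosphate uptake, differed by 2.42, from IRAK4 values of 4.20 to 4.43 near the low end. PHO89, a sodium-coupled phosphate transporter, differed by 1.72, GIT1, a glycerophosphoinositol permease, by 0.83 and the phosphatase PHO8 by 0.22. These were the 5 higher genes of 17, and PHO85, PHO11 and VTC1 were the 3 lower ones. VTC1 was not called without replicate 1.

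Of 22 pheromone response genes 3 (13.6%) were called higher and 8 (36.4%) lower, against 18.3% and 28% over all genes. FUS1, a cell fusion gene and a common reporter of this pathway, read log2 9.68, 7.69 and 7.61 in IRAK1 and 5.19, 5.11 and 5.59 in IRAK4. The difference was 3.03 ± 0.39 (SE), or 2.35 without replicate 1, the highest array. AFR1, which shapes mating projections, was higher by 1.05, and FIG2, also higher, was not called without replicate 1. The median log2 difference over 22 genes was -0.22, or -0.05 without replicate 1. Of these genes 8 were called lower, among them FAR1 at -0.79, STE4 at -0.73, STE2 at -0.70 and the transcription factor STE12 at -0.58. Among the a-specific genes MFA1, MFA2 and ASG7 were higher at 0.91, 0.61 and 0.76, BAR1 and STE2 lower at -0.76 and -0.70, and AGA2 and STE6 not called at 0.24 and -0.16. AGA2 and STE6 were called without replicate 1, at 0.52 and -0.20, and MFA2 then differed by 0.97. Of the alpha-specific genes SAG1 was higher at 0.49, and MF(ALPHA)1, MF(ALPHA)2 and STE3 were lower at -0.70, -0.51 and -0.65.

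Meiosis genes are normally silent in haploid cells of this kind. IME1, the inducer of meiosis, read log2 9.49, 9.32 and 9.10 in IRAK1 and 6.36, 6.26 and 6.48 in IRAK4, a difference of 2.94. DMC1, the meiotic recombinase, read 9.86, 9.57 and 9.19 against 6.38, 6.77 and 6.78. Both were wholly separate between the groups, and HOP1 and IME2 differed by 0.69 and 0.67. NDT80, the activator of the middle genes, was not called at 0.10. Of 20 genes 7 were called higher and 3 lower, and the lower ones, SPS4, SPR3 and SMK1, lay at log2 3.44 to 5.47, near the low end.

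Cell wall genes went both ways. Of 30 genes of the cell wall integrity list 11 (36.7%) were called lower and 4 (13.3%) higher, against 28% and 18.3% over all genes. SVS1 read log2 9.63, 9.35 and 9.43 in IRAK1 and 11.02, 11.26 and 11.29 in IRAK4. FKS1, the glucan synthase, differed by -1.40, WSC2, a wall stress sensor, by -1.31 and SLT2, the kinase of the pathway, by -0.55. MTL1, PIR3, PIR1 and SED1 were the 4 higher ones, at 1.17, 0.78, 0.53 and 0.44. MTL1 read 9.22 in IRAK1 replicate 1 and differed by 0.69 without it. Of 17 cell wall mannoprotein genes 6 (35.3%) were called higher and 4 (23.5%) lower, with a median log2 difference of 0.21, or 0.02 without replicate 1. Among them TIP1 read 13.71, 13.41 and 13.53 in IRAK1 and 10.31, 10.34 and 10.58 in IRAK4, with the Control mean of 12.75 nearer to IRAK1. TIR3 read 6.31, 8.78 and 8.46 against 5.53, 5.49 and 5.71.

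Of 11 fatty acid synthesis genes 6 were called lower and 4 higher. Lower were the cytosolic carboxylase ACC1 by -0.70, the synthase subunits FAS1 and FAS2 by -0.87 and -0.53, the elongase ELO2 by -0.93 and the desaturase OLE1 by -0.44. HFA1, the mitochondrial acetyl-CoA carboxylase, went the other way and was higher by 0.67. FAA4, an acyl-CoA synthetase that activates fatty acids from outside, was higher by 2.14 and read log2 12.42, 12.09 and 11.77 in IRAK1 and 9.92, 9.84 and 10.08 in IRAK4. Ergosterol genes had 11 of 26 lower, led by ERG4 at -1.49 and ERG3 at -1.09, and 5 higher, led by ERG28 at 1.22 and ERG6 at 0.96. In glycerol metabolism the makers GPP1, GPP2 and GPD1 were lower at -1.16, -1.10 and -0.90. The users GUT1, glycerol kinase, and GUT2, its dehydrogenase, were higher at 2.08 and 1.15. GPP1 differed by -0.61 without replicate 1.

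Amino acid synthesis genes under Gcn4 had 20 of 47 called lower and 2 higher, or 22 and 4 without replicate 1. The higher ones were BAT2 at 1.34 and TRP4 at 0.97, and the lower ones were led by LYS9 at -1.24. BAT1, the mitochondrial partner of BAT2, differed by -0.80. Of 25 genes under nitrogen catabolite repression 9 (36%) were higher and 5 (20%) lower. GAP1, the general amino acid permease, read log2 11.12, 11.51 and 11.24 in IRAK1 and 9.40, 9.19 and 9.42 in IRAK4. BIO5, a permease for biotin precursors, read 9.20, 9.87 and 9.70 against 6.60, 6.31 and 6.84. Of 18 glycolysis genes 3 (16.7%) were higher, HXK1, PFK26 and HXK2, and 6 (33.3%) lower, led by PFK1 at -0.77, shares near the 18.3% and 28% over all genes.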

How the data were processed

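The samples were hybridised to 1-colour Affymetrix yeast arrays. The deposited table holds log2 values per probe set made by the authors with GCRMA, per the submitters' processing notes, and its version is not given in the sources used here. No scaling was added to these values. Of 5716 probe sets 5498 had 1 gene symbol, and the 218 with none or several were left out. For each of 5449 genes the probe set of highest mean across the 15 arrays stood for the gene, and 47 genes had several. Among the kept probe sets 112 may cross-hybridise by their name. MRP8 was left out of the mitochondrial ribosomal list because it is not a ribosomal protein gene.

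Group means of all 5 groups were fitted with limma 3.58.1 in R 4.3.3 (lmFit, eBayes), and p-values were adjusted over 5449 genes by Benjamini-Hochberg. The fit was repeated on 14 arrays without IRAK1 replicate 1. Figures and summaries used Python 3.11.15 and matplotlib 3.10.9. The fit was tested on simulated data for IRAK1 against IRAK4, with 200 of 5449 genes changed. Recovery was 62.1% at a log2 change of 0.5, 94% at 1 and 100% at 2. False calls made up 6.04% of the calls. The simulation gave each gene the same spread in all groups and held no array that stood apart. It also changed far fewer genes than were called in these data, so these rates may differ here.

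Named genes were the 15 highest and 15 lowest differences that were called with and without IRAK1 replicate 1 and whose arrays did not overlap. To these were added up to 3 called members of each list in each direction, isoenzymes, and the galactose, marker and mating-type genes. SLT2, FUS1, KAR2, HSP12, RPN4 and HAC1 were named whatever their values. A further 63 genes were chosen after their values were seen, ECI1, JEN1, SIP4 and CLN1 among them. The comparison, the members and the 57 gene lists were chosen with earlier results of these data known. Lists are described by counts and medians, with no test. The labels call the arrays biological replicates and do not say how the cultures were separated, so p-values measure the spread between these samples. Deviations of same-numbered IRAK1 and IRAK4 arrays from their group means correlated at r = -0.197, -0.225 and -0.339. IRAK1 replicate 1, which stood apart, enters each value through the group mean. These values therefore cannot settle whether replicate numbers pair the samples, and the other groups were not examined for it. Precision is limited by how many arrays there are. Other scalings, filters, weights, sets of arrays and a replicate block were tried as alternatives. Genes of the lists with no named probe set were not analysed here.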

Additional observations from a re-analysis of the deposited data

How the results depend on the processing

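Counts of calls depended most on which arrays set the spread. With only the 6 arrays of both kinases 1486 genes were called, 623 higher and 863 lower. With only 5 arrays, those 6 without IRAK1 replicate 1, 2403 were called. With all 15 arrays and a difference of at least 2-fold also required, 332 were called. Scaling moved the balance of directions more than the total. With each array centred on its median 2522 genes were called, 1136 higher and 1386 lower. With quantile normalization 2577 were called, 1110 higher and 1467 lower. When 1 array was left out in turn, the counts were 2129 to 2922 called, 795 to 1149 higher and 1246 to 1773 lower. Same-numbered IRAK1 and IRAK4 arrays did not deviate together, with correlations of -0.197 to -0.339. With the replicate block and all 15 arrays 2462 genes were called, 976 higher and 1486 lower. With the replicate block and the 6 arrays 1044 were called, 489 higher and 555 lower. All 280 called named genes kept their sign in the 17 alternatives, while 91 lost the call in at least 1, 12 of them without IRAK1 replicate 1. CIT2, at 0.01 and not called, was -0.34 with array weights and -0.35 without IRAK1 replicate 1, also among the 5 arrays, and its leave-one-out range was -0.35 to 0.23. TDH1, at -0.10 and not called, was 0.32 in both fits without that array, with a leave-one-out range of -0.33 to 0.32. The causes were not tested. Array weights gave IRAK1 replicate 1 a weight of 0.0798. Values near the low end of the arrays limit the size of a difference, as for SUL1 and HXT8.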

Other observations

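Several gene groups outside the comparisons described so far also differed. Of 12 genes of thiamine, vitamin B6 and biotin 5 were called higher in IRAK1 cells and 1 lower, with a median log2 difference of 0.24. Without IRAK1 replicate 1, 8 were higher and the median was 0.48. Of 12 multidrug resistance genes 5 were higher and 2 lower, and of 14 anaerobic genes 5 were higher and 3 lower. Purine synthesis had 8 of 19 genes lower and 1 higher, and inositol and phospholipid synthesis 7 of 18 lower and 1 higher. The pentose phosphate pathway had 5 of 11 lower and 1 higher. Without that array the lower genes numbered 9, 11 and 8 in these 3 lists and the higher ones 2, 1 and 2. Genes of daughter-cell separation had 4 of 9 lower and 0 higher. Over all genes 18.3% were called higher and 28% lower.

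Neighbouring genes were sometimes at least 2-fold higher together. Of 400 neighbours of genes at least 2-fold higher, 44 (11%) were also at least 2-fold higher, against 4.04% over all genes. Such pairs numbered 22 of 5017, of which 10 were divergent, 3 convergent and 9 on the same strand. Over all 5017 pairs 25.7% were divergent, 26.5% convergent and 47.8% on the same strand. FDH1 and its neighbour YOR389W, of unknown function, differed by 7.10 and 1.98 on the log2 scale. YIG1, which affects glycerol synthesis, and CSM4, of meiotic chromosome segregation, differed by 3.49 and 2.88. CIT3 and PDH1, both of the methylcitrate cycle, are also neighbours, at 4.19 and 2.68. Of 208 neighbours of genes at least 2-fold lower, 8 (3.85%) were lower too, against 2.06% over all genes. Shared probes, shared promoters and close copies were not tested for these pairs.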
